A study of Mus musculus with 12 samples.

Results

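Levels of 9 genes were described in RNA of mouse aorta, namely Chi3l3, Chi3l4, Chi3l1, Arg1, Retnla, Mrc1, Cd163, Lyve1 and Folr2. Among them are markers of alternatively activated macrophages and of resident macrophages. They are 9 of the 34797 gene names on the array, and each was found by its name in the scanner output, where 1 probe carried it. The set was chosen from results of these same arrays, led by Chi3l3, whose higher level at day 3 on the arrays labelled smSocs3-KO and whose day 3 difference between genotypes were the values that chose it. Values of the 9 genes in these 2 contrasts are therefore given as a description, with no test, and tests are given for the WT challenge response and for the genotype difference before challenge. These share arrays with the contrasts of the choice (WT at day 3, and smSocs3-KO before challenge), so they are not independent of it. There were 12 arrays of aortic RNA from male mice, 3 from each of WT before challenge, WT at day 3 of BAPN + AngII, smSocs3-KO before challenge and smSocs3-KO at day 3. BAPN, which blocks the crosslinking of collagen and elastin, was infused at 150 mg/kg/day together with the pressor hormone AngII at 1000 ng/kg/min, and the mice before challenge had no infusion. Mice of both genotypes were homozygous for a floxed Socs3 allele (Socs3fl/fl) on a mixed 129S5/SvEvBrd, C57BL6 and SJL background. The smSocs3-KO mice also carried SM22-Cre, a recombinase driven by a smooth muscle promoter, and WT mice were littermates without it. The labels give no age for these mice, and the general methods for animal experiments name 11 to 14 weeks.

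The RNA came from whole aortic tissue, whereas the Cre was directed to smooth muscle cells, so that macrophages in the tissue were not themselves the intended target of the deletion. Socs3 itself was not lower under the smSocs3-KO label, with log2 levels of 0.15, 0.17 and 0.58 in WT and 0.10, 0.97 and 1.29 in smSocs3-KO before challenge, so the latter are called the arrays labelled smSocs3-KO. At day 3 the Socs3 levels were 2.01, 2.13 and 0.47 in WT and 3.11, 2.09 and 3.93 under the smSocs3-KO label (difference 1.50, limma adjusted p = 0.201).

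Macrophages that meet IL-4 or IL-13 take on a programme called alternative activation, in which the IL-4 receptor signals through Stat6 and raises secreted chitinase-like lectins, the resistin-like protein Retnla and the enzyme arginase 1. In mice Chi3l3 (now Chil3, also known as Ym1), Arg1 and Retnla are its most used markers, and the mannose receptor Mrc1 is a further one. Resident macrophages of the arterial wall and of other tissues carry a second group of surface proteins, among them the hyaluronan receptor Lyve1, the folate receptor Folr2 and the haemoglobin scavenger receptor Cd163. Chi3l3 is also made by neutrophil precursors, Lyve1 by lymphatic endothelium and Chi3l1 by many cell types, so none of these genes marks a single cell type in a whole tissue.

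Chil3 and Chil4, the current RefSeq names of Chi3l3 and Chi3l4, are neighbouring genes on chromosome 3 with 33926 bases between them. Their promoters are shown because they are near copies of each other. The probe of Chi3l3 was well above background on 9 arrays and that of Chi3l4 on 2. Probes differ in brightness, so these counts do not compare the expression of the 2 genes. In a local alignment of 300-base windows, from 250 bases before the annotated start to 50 bases after it, 251 of 272 aligned positions were identical (92.28%), against 50.32% for Chil3 and Chil1 and 51.74% for Chil3 and Retnla. The sequences below are from RefSeq (GRCm38.p6) and run from 250 bases before the annotated start through 30 bases from it on. Chil3 lies at chr3:106167535-106167814 (minus strand), Chil4 at chr3:106219450-106219729 (minus strand) and Retnla at chr16:48842359-48842638 (plus strand). Capitals mark matches to TTCNNNGAA or TTCNNNNGAA, the 2 spacings of a Stat site, and to TATAAA.
Chil3 promoter: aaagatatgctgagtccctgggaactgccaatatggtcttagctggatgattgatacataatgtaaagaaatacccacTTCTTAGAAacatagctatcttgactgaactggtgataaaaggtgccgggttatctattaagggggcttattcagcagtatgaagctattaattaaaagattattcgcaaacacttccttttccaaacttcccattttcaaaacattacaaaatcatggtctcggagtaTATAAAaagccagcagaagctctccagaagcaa
Chil4 promoter: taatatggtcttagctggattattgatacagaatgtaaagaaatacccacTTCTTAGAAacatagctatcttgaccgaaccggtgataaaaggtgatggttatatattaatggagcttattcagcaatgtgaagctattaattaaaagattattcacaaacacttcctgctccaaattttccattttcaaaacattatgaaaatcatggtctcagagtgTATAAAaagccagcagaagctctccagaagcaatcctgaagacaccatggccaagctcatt
Retnla promoter: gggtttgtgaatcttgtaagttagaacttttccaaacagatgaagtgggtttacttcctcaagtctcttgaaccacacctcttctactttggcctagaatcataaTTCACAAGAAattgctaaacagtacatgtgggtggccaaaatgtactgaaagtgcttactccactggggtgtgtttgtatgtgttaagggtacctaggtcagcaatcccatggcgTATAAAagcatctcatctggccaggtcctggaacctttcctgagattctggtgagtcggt
The Stat-spaced match TTCTTAGAA stands in both chitinase-like promoters, and its first base is 172 bases before the annotated start of Chil3 and 200 before that of Chil4. Retnla held TTCACAAGAA, of the longer spacing that Stat6 prefers, 145 bases before its start. TATAAA began 3 bases before the annotated start of Chil3, 31 before that of Chil4 and 30 before that of Retnla. Both strands were searched and matches of different motifs were allowed to overlap. Over 32851 RefSeq promoters of the same length, 8.3% held TTCNNNGAA, 6.95% held TTCNNNNGAA and 13.6% held TATAAA, so these matches are common and are given as a description. Promoters were found for 7 of the 9 genes, Arg1 and Lyve1 being those without one, and those of Chil1, Mrc1, Cd163 and Folr2 held none of these 3 motifs.

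The probes that read the chitinase-like genes and Arg1 are shown because each gene rests on 1 probe. Their mm9 positions, as the array files give them, are chr3:105950485-105950544 for Chi3l3, chr3:106006584-106006643 for Chi3l4, chr1:136086448-136086507 for Chi3l1 and chr10:24636194-24636253 for Arg1. The probes of Chi3l4 and Arg1 are given whole (60 bases), and the first 30 bases are given for the other 2.
Chi3l3 probe, first bases: tgaacatcttttgcttcctgtaaaaccacc
Chi3l4 probe: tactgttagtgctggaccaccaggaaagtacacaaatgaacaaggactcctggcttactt
Chi3l1 probe, first bases: ggacaccacttggatcaagtaggcaaatat
Arg1 probe: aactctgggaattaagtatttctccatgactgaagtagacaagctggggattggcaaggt
Whether the Chi3l4 probe also binds RNA of its near copy Chi3l3 was not tested.

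A level is the log2 processed signal of a probe relative to the 75th percentile of its array, so that 0 is the signal at that percentile and 1 unit is a doubling. Levels of different probes are not set against each other, because probes differ in brightness. On the 12 arrays 55.4% to 61.2% of spots were well above background and none was saturated. A gene was tested when 1 of the groups had all 3 of its arrays well above background for its probe, which gave 22761 genes, among them 8 of the 9 described here and not Chi3l4. Chi3l3 passed through WT at day 3 and both smSocs3-KO groups, Chi3l1 through the smSocs3-KO groups, and Arg1 through smSocs3-KO at day 3 alone, while Retnla, Mrc1, Cd163, Lyve1 and Folr2 were well above background on all 12 arrays. The labels do not say that replicates are separate mice, so p-values measure the spread between these samples. Since the tissue was taken in bulk, fewer cells of a type and less RNA per cell cannot be told apart.

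Some features of the arrays bear on every result. Slide 1 held all 6 WT arrays with replicate 1 of smSocs3-KO before challenge, and slide 2 held the remaining 5 smSocs3-KO arrays, so genotype and slide are largely the same split. The aortic wall markers, smooth muscle and endothelial genes such as Myh11 and Cdh5, were high on all arrays (mean level of 8 genes 5.32 to 5.92). WT replicate 4 at day 3 stood apart from the other WT arrays at day 3. Its 21 macrophage and monocyte markers had a mean level of 1.06, near the 0.88 to 1.03 before challenge, against 2.59 and 2.15 on replicates 1 and 3. Its aortic wall level was 5.92, against 5.33 and 5.41. The 4 comparisons share groups with each other, so they are given side by side and not as support for each other.

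The largest day 3 difference of the set was that of Chi3l3, a secreted chitinase-like lectin without chitinase activity. Its levels were -4.94, -5.26 and -4.37 in WT before challenge, 0.02, -3.04 and -2.70 in WT at day 3, -1.09, -4.21 and -3.49 under the smSocs3-KO label before challenge and 3.65, 0.98 and 4.45 under that label at day 3. In the scanner's own units these were processed signals of 8.38 to 16.6, 34.6 to 411, 24.1 to 92.5 and 841 to 9963. The 3 day 3 arrays labelled smSocs3-KO were the 3 highest of the 12, and the 3 WT arrays before challenge, none of them well above background, were the 3 lowest. The WT day 3 and smSocs3-KO arrays before challenge overlapped in between and were not told apart by their spread.

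Under the smSocs3-KO label the day 3 mean of Chi3l3 was higher than before challenge by 5.96 on the log2 scale (SE 1.06, 62.2-fold), and at day 3 it was higher than in WT by 4.93 (SE 1.06, 30.5-fold). Neither pair of groups overlapped. With the background corrected by normexp and the arrays quantile normalized, these differences were smaller, at 4.57 and 3.96. Within slide 2, on the 2 earlier and 3 day 3 arrays there, the first difference was 6.88. The day 3 genotype difference became 7.69 when the slide was a block in the model, which then rests on the 1 smSocs3-KO array of slide 1. In WT, Chi3l3 was at least 5.76-fold higher at day 3 and did not pass (log2 difference 2.95, SE 1.06, limma adjusted p = 0.114), although the 2 groups did not overlap. Before challenge it was at least 2.83-fold higher under the smSocs3-KO label (1.92, SE 1.06, limma adjusted p = 0.999875). An "at least" value sets the brighter mean against a floor, which is, on each array of the dimmer group, the lowest signal among probes well above background or the probe's own signal where that is higher.

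**Figure D1:**
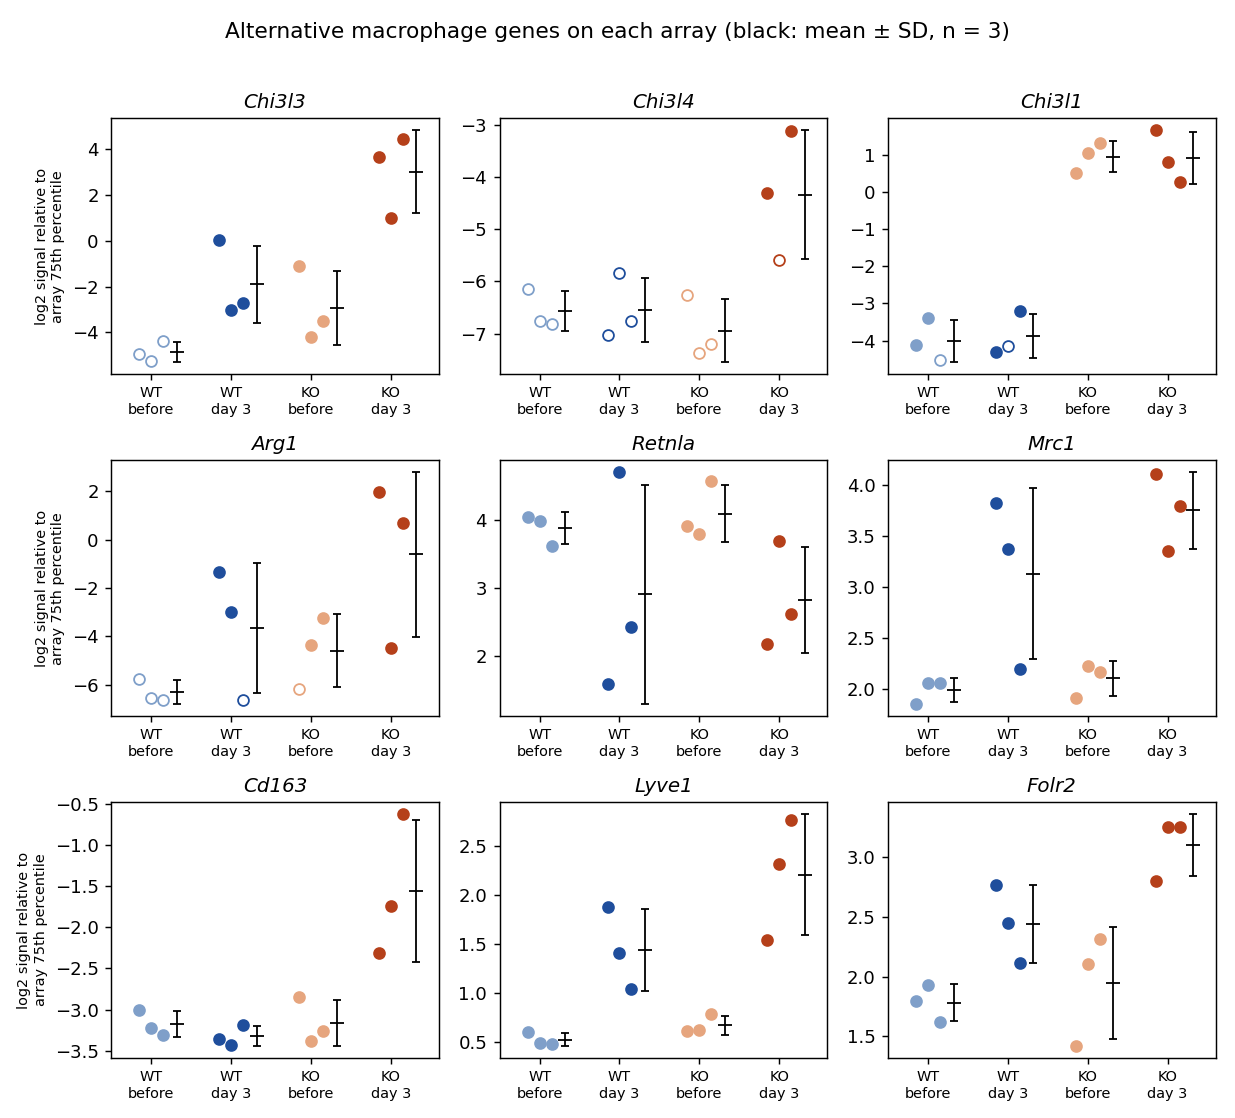
Log2 level of the 9 genes on each of the 12 arrays, relative to the 75th percentile of the array, for WT and for arrays labelled smSocs3-KO (KO), before challenge and at day 3 of BAPN + AngII. Filled points were well above background and open points were not, and black marks show the mean and SD of 3 arrays. Chi3l3 ran from -5.26 to 4.45, Chi3l1 split by genotype at both times, and Arg1 had its widest spread at day 3.

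Chi3l4, the close relative of Chi3l3, was well above background on 2 arrays alone, replicates 2 and 5 of smSocs3-KO at day 3, with levels of -4.30 and -3.11. These are the 2 arrays on which Chi3l3 was highest. The third array of that group was at -5.59, not well above background, and the other 9 arrays lay between -7.37 and -5.85. The day 3 mean under the smSocs3-KO label was at least 1.25-fold higher than before challenge and at least 1.09-fold higher than in WT. The signal of this probe was close to the array's floor. The part of binding by Chi3l3 RNA in this signal was not tested.

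Arg1, which turns arginine into ornithine and urea and so draws on the substrate of nitric oxide synthase, differed more among arrays of a group than any of the other 8 genes at day 3. Its levels were -5.74, -6.55 and -6.62 in WT before challenge, -1.36, -2.995 and -6.60 in WT at day 3, -6.18, -4.36 and -3.22 under the smSocs3-KO label before challenge and 1.95, -4.47 and 0.67 under it at day 3. The arrays not well above background were the 3 of WT before challenge, WT replicate 4 at day 3 and smSocs3-KO replicate 1 before challenge. In each genotype, 2 of the 3 day 3 arrays exceeded all arrays before challenge and the third did not, so the groups overlapped in all 4 comparisons.

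The mean of Arg1 under the smSocs3-KO label was higher at day 3 by 3.97 (SE 1.63, 15.6-fold) and exceeded that of WT at day 3 by 3.03 (SE 1.63, 8.20-fold). Without smSocs3-KO replicate 3, the low array, these were 5.89 and 4.96, and without WT replicate 4 the latter was 1.56. When the slide was a block the day 3 genotype difference fell to 0.65. With normexp and quantile normalization the smSocs3-KO response was 2.39 and the day 3 genotype difference 1.95. The WT difference of at least 1.79-fold did not pass (log2 difference 2.65, SE 1.63, limma adjusted p = 0.316), nor did the genotype difference before challenge (1.72, SE 1.63, limma adjusted p = 0.999875). On the array labelled smSocs3-KO that was low in Arg1 at day 3, Chi3l3 was also the lowest of its group and Retnla the highest. That was not so on the low WT array, replicate 4. There Chi3l3 (-2.70) was not the lowest of its group and Retnla (2.43) was not the highest.

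Retnla, a secreted resistin-like protein, had lower means at day 3, where Chi3l3 and Arg1 had higher ones, although all 3 are Stat6 targets in textbook accounts. Its levels were 4.05, 3.99 and 3.62 in WT before challenge, 1.58, 4.71 and 2.43 in WT at day 3, 3.92, 3.79 and 4.58 under the smSocs3-KO label before challenge and 2.17, 3.69 and 2.62 under it at day 3. WT replicate 3 at day 3 was the highest of all 12 arrays while the other 2 of its group were below every WT array before challenge. The WT difference did not pass (log2 difference -0.98, SE 0.67, limma adjusted p = 0.365), and it was -0.32 without WT replicate 1 at day 3 and -1.88 without WT replicate 3. Under the smSocs3-KO label the day 3 arrays all lay below those before challenge, with a difference of -1.27 (SE 0.67) and -1.36 within slide 2. The genotypes differed by 0.21 before challenge (SE 0.67, limma adjusted p = 0.999875) and by -0.08 at day 3, with overlap at both times. The day 3 value had no settled sign, since it was -0.74 without WT replicate 1 and 0.82 without WT replicate 3.

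Chi3l1, a chitinase-like protein made by macrophages, smooth muscle cells, epithelium and other cells, differed by genotype. Its levels were -4.12, -3.40 and -4.51 in WT before challenge and -4.29, -4.13 and -3.20 in WT at day 3, where 2 arrays of each group were well above background. On the arrays labelled smSocs3-KO they were 0.49, 1.03 and 1.31 before challenge and 1.66, 0.80 and 0.25 at day 3. Every array labelled smSocs3-KO was higher than every WT array. Before challenge the difference was 4.96 (SE 0.42, 31.0-fold, limma adjusted p = 0.00427). Chi3l1 had passed the filter through the smSocs3-KO groups alone, the split compared here, so this p-value is not independent of the filter. Chi3l1 was the only one of the 8 genes called in that comparison. There 6 of 22761 genes were called (0.0264%), all of them higher under the smSocs3-KO label. At day 3 the difference was 4.78 (SE 0.42, 27.5-fold). Both were smaller when the background was corrected by normexp and the arrays were quantile normalized, at 3.25 before challenge, where the call was kept (limma adjusted p = 0.0049), and 3.11 at day 3. The challenge differences were 0.14 in WT (SE 0.42, limma adjusted p = 0.858) and -0.04 under the smSocs3-KO label, each with overlap.

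The slide bears on the Chi3l1 difference. On slide 1 alone, the single smSocs3-KO array there (0.49) lay above all 6 WT arrays (-4.51 to -3.20) and exceeded the WT mean before challenge by 4.51. With the slide as a block the adjusted p was 0.114, since 1 array then carries the comparison. In each fit that left out 1 array the call held, with differences of 4.70 to 5.26 and limma adjusted p of 0.00372 to 0.0475. Mesothelial markers, genes of the serosal lining such as Msln, Upk3b and Wt1, moved with the same split. All 9 had a higher mean under the smSocs3-KO label before challenge (median difference 2.11) and at day 3 (2.56), although limma called 0 of 9 at each time, with 7 and 8 at an unadjusted p under 0.05. The mean level of the 9 was 0.42, 0.24 and -2.19 in WT before challenge and 1.21, 0.81 and 2.17 under the smSocs3-KO label, and their part in the Chi3l1 difference was not tested.

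Mrc1, the mannose receptor, had levels of 1.85, 2.06 and 2.06 in WT before challenge and 3.83, 3.37 and 2.20 at day 3, and of 1.91, 2.23 and 2.17 and then 4.11, 3.36 and 3.80 under the smSocs3-KO label. All 6 day 3 arrays but WT replicate 4 exceeded every array before challenge. WT replicate 4 (2.20) lay above the WT arrays before challenge and below 1 array labelled smSocs3-KO (2.23). The WT difference of 1.14 (SE 0.35, 2.21-fold) did not pass (limma adjusted p = 0.0779), and without WT replicate 4 it was 1.61 and passed (limma adjusted p = 0.00281). For the arrays labelled smSocs3-KO the difference was 1.65 (SE 0.35, 3.14-fold) and 1.56 within slide 2. The genotype difference was 0.11 before challenge (SE 0.35, limma adjusted p = 0.999875) and 0.62 at day 3, where the groups overlapped.

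Lyve1 and Folr2 followed the same order of groups. Lyve1 levels were 0.60, 0.49 and 0.49 in WT before challenge, 1.87, 1.41 and 1.04 in WT at day 3, 0.61, 0.62 and 0.79 under the smSocs3-KO label before challenge and 1.54, 2.31 and 2.77 under it at day 3. Each day 3 array was above all 6 arrays before challenge. In WT the difference was 0.91 (SE 0.29, 1.89-fold, limma adjusted p = 0.0836), and it passed without WT replicate 4 (1.11, limma adjusted p = 0.0354). Under the smSocs3-KO label it was 1.53 (SE 0.29, 2.89-fold), with 1.50 within slide 2. The genotypes differed by 0.15 before challenge (SE 0.29, limma adjusted p = 0.999875), where the arrays did not overlap, and by 0.76 at day 3, where they did.

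Folr2 levels were 1.80, 1.93 and 1.62 in WT before challenge, 2.77, 2.45 and 2.12 in WT at day 3, 1.42, 2.11 and 2.31 under the smSocs3-KO label before challenge and 2.80, 3.25 and 3.25 under it at day 3. The day 3 arrays labelled smSocs3-KO were the 3 highest, and the WT day 3 arrays overlapped the smSocs3-KO arrays before challenge. The WT difference was 0.66 (SE 0.26, 1.58-fold, limma adjusted p = 0.134). Under the smSocs3-KO label it was 1.16 (SE 0.26, 2.23-fold) and 0.89 within slide 2. The day 3 genotype difference of 0.66 (SE 0.26) became -0.13 when the slide was a block in the model. Before challenge the genotypes differed by 0.16 (SE 0.26, limma adjusted p = 0.999875).

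Lyve1 is also a lymphatic endothelial gene. Of 5 other lymphatic markers on the array 3 were tested and limma called 0 of them in any comparison, with 1 at an unadjusted p under 0.05 in each challenge response, 2 between genotypes before challenge and 3 at day 3. Prox1, the defining transcription factor of that cell type, was not well above background on any array. The mean level of the 3 was -1.999 to -1.005 in WT and -0.47 to 0.75 under the smSocs3-KO label. Their part in the Lyve1 signal was not tested.

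Cd163, the receptor that clears haemoglobin bound to haptoglobin, was higher in 1 of the 4 groups alone. Its levels were -3.005, -3.22 and -3.31 in WT before challenge, -3.36, -3.43 and -3.19 in WT at day 3, -2.85, -3.38 and -3.27 under the smSocs3-KO label before challenge and -2.31, -1.74 and -0.62 under it at day 3. The other 9 arrays overlapped within a narrow range. The difference under the smSocs3-KO label was 1.61 (SE 0.35, 3.04-fold), with 1.76 within slide 2, and at day 3 the genotypes differed by 1.76 (SE 0.35, 3.39-fold), or by 2.24 when the slide was a block. The WT difference was -0.15 (SE 0.35, limma adjusted p = 0.812) and turned to 0.045 under quantile normalization. Before challenge the genotypes differed by 0.01 (SE 0.35, limma adjusted p = 0.999875).

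**Figure D2:**
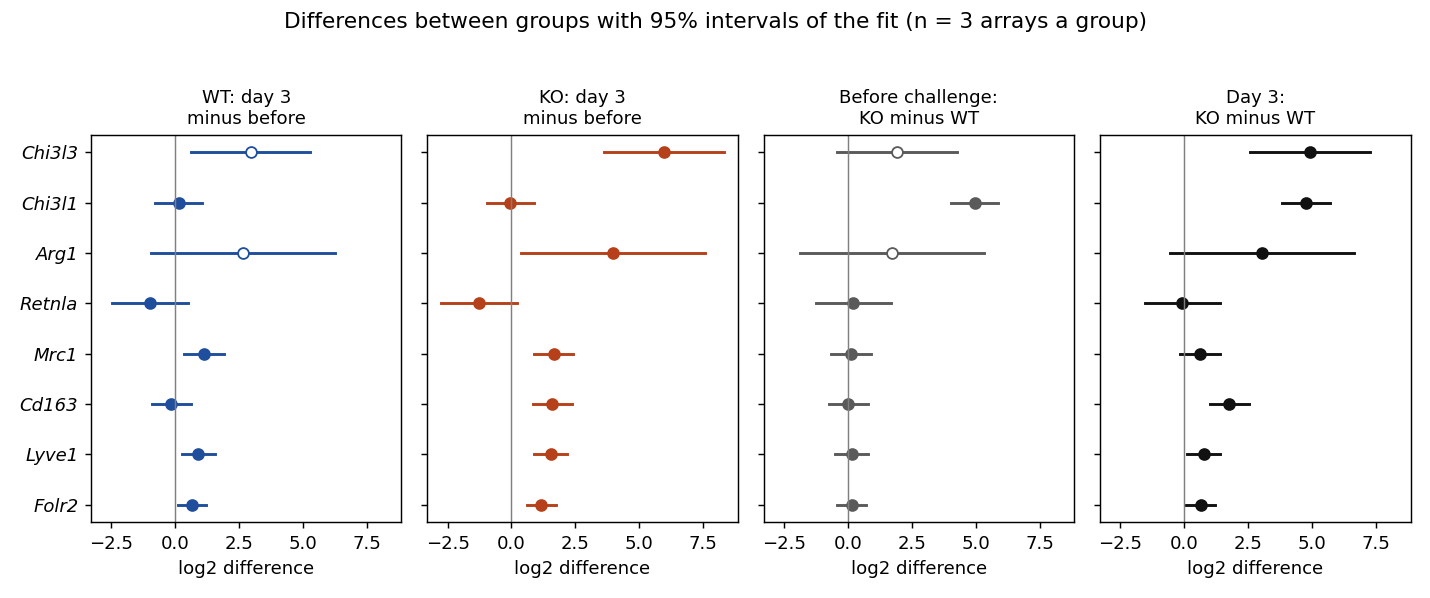
Log2 differences between group means for the 8 tested genes in the 4 comparisons, with 95% intervals of the limma fit (3 arrays a group). Open points mark comparisons in which the dimmer group was not well above background on any array. Chi3l1 differed by 4.96 between genotypes before challenge and by 0.14 in the WT challenge response, while the widest intervals were those of Arg1.

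Counted over the 8 tested genes, limma called 0 in the WT challenge response, against 4.65% of all genes tested, and 4 had an unadjusted p under 0.05. Without WT replicate 4 the count was 2, Mrc1 and Lyve1. In that response 6 of the 8 differences were positive, with a median of 0.79 against -0.04 over all genes. For 4 of the 8, Chi3l3, Mrc1, Lyve1 and Folr2, the WT groups did not overlap, and all 4 were higher at day 3. Over all genes 35.3% had no overlap in that comparison. In the smSocs3-KO response 6 of 8 had no overlap (28.9% of all genes), 5 of them higher at day 3 and Retnla lower. The median difference there was 1.57 against -0.10 over all genes. Between genotypes 3 of 8 did not overlap before challenge (11% of all genes) and 4 of 8 at day 3 (21.3%), all of them higher under the smSocs3-KO label. The counts for the smSocs3-KO response and for day 3 describe contrasts by which the set was chosen, and the other 2 comparisons share arrays with these. Nothing is read from them.

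Other genes of the alternative programme were taken as 4 lists of 40 genes, of which 32 were tested. They comprised ligands, receptors, transcription factors and further genes of the programme, and the lists were made with earlier results of these arrays known. In the WT challenge response 1 of 32 rose and 0 fell, against 4.65% of all genes. In the smSocs3-KO response 5 of 32 rose and 0 fell, against 2.36% called over all genes. Between genotypes 0 of 32 were called before challenge (0.0264% of all genes; 2 of 32 at an unadjusted p under 0.05 with limma) and 3 of 32 were higher at day 3 (1.07%). The 3 counts above 0 rested on single arrays and, with an array left out, ranged from 0 to 7 in WT, 0 to 9 under the smSocs3-KO label and 0 to 3 at day 3. The highest counts in both challenge responses came without WT replicate 4. Over these lists and the lists of other cell types and states described further on, 9 genes were called in WT, 16 in the smSocs3-KO response and 5 at day 3. When the slide was a block, 0 of the 16 and 0 of the 5 were called (limma adjusted p of 0.0642 to 0.146 and 0.221 to 0.378). The 9 called in WT were called there too. All WT arrays were on slide 1, so the slide block left the WT differences unchanged and does not test them. Each of the 9 lost its call in 9 to 16 of 20 alternative settings. Among these was every setting that left out a WT array before challenge, WT replicate 1 or 3 at day 3, or smSocs3-KO replicate 4 before challenge.

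Among the ligands, Il4 and Il13, which start the programme, were not well above background on any of the 12 arrays. Il33, an alarmin released by stromal cells that acts upstream of IL-13, was measured on all of them. Its mean level was 1.67 ± 0.14 (SD, n = 3) in WT before challenge, 2.42 ± 0.79 in WT at day 3, 2.50 ± 0.39 under the smSocs3-KO label before challenge and 4.63 ± 0.52 under it at day 3. Every day 3 array labelled smSocs3-KO exceeded all other arrays. Il33 rose under that label by 2.12 (SE 0.38, limma adjusted p = 0.0267) and was higher than in WT at day 3 by 2.21 (SE 0.38, limma adjusted p = 0.0276). Neither passed with the slide as a block (limma adjusted p = 0.0973 and 0.302). Il1rl1, the receptor of Il33, was higher under the smSocs3-KO label before challenge without overlap (log2 difference 1.42, SE 0.46) and did not pass (limma adjusted p = 0.934).

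Of 7 receptors, 2 rose under the smSocs3-KO label and 0 were called in the other comparisons. Il4ra, the chain shared by the receptors of IL-4 and IL-13, had a mean level of -1.46 ± 0.12 (SD, n = 3) in WT before challenge, 0.17 ± 1.20 in WT at day 3, -0.80 ± 0.22 under the smSocs3-KO label before challenge and 2.48 ± 1.33 under it at day 3. It rose under that label by 3.27 (SE 0.65, limma adjusted p = 0.0374), a call lost when the slide was a block (3.15, limma adjusted p = 0.115). The 2 highest of all 12 arrays were the 2 on which Arg1 was highest. Il13ra1, which pairs with Il4ra, rose under that label by 1.56 (SE 0.32, limma adjusted p = 0.0394; 0.126 when the slide was a block). Il13ra2, the decoy receptor, did not pass there (log2 difference -0.61, SE 0.35, limma adjusted p = 0.301).

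Stat6, which carries the IL-4 signal to the nucleus, had group means of 1.37 to 1.66 and was called in none of the 4 comparisons. Its difference was 0.02 in WT (limma adjusted p = 0.959) and 0.20 under the smSocs3-KO label (limma adjusted p = 0.480). Of 8 transcription factors of the programme Cebpb, which acts on Arg1, was the 1 called. It rose under the smSocs3-KO label by 1.11 (SE 0.23, limma adjusted p = 0.0395) and was higher than in WT at day 3 by 1.26 (SE 0.23, limma adjusted p = 0.0324), and neither passed when the slide was a block (limma adjusted p = 0.0642 and 0.221). Of 15 further genes of the programme, the scavenger receptor Msr1 rose in WT by 1.9996 and under the smSocs3-KO label by 2.10 (SE 0.47 each, limma adjusted p = 0.0427 and 0.0471), the latter call being lost when the slide was a block (0.146). The lectin Clec10a was higher under the smSocs3-KO label at day 3 by 2.14 (SE 0.44, limma adjusted p = 0.0483). It lost that call in 15 of 19 alternative settings, and the difference became 1.45 when the slide was a block (limma adjusted p = 0.378).

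**Figure D3:**
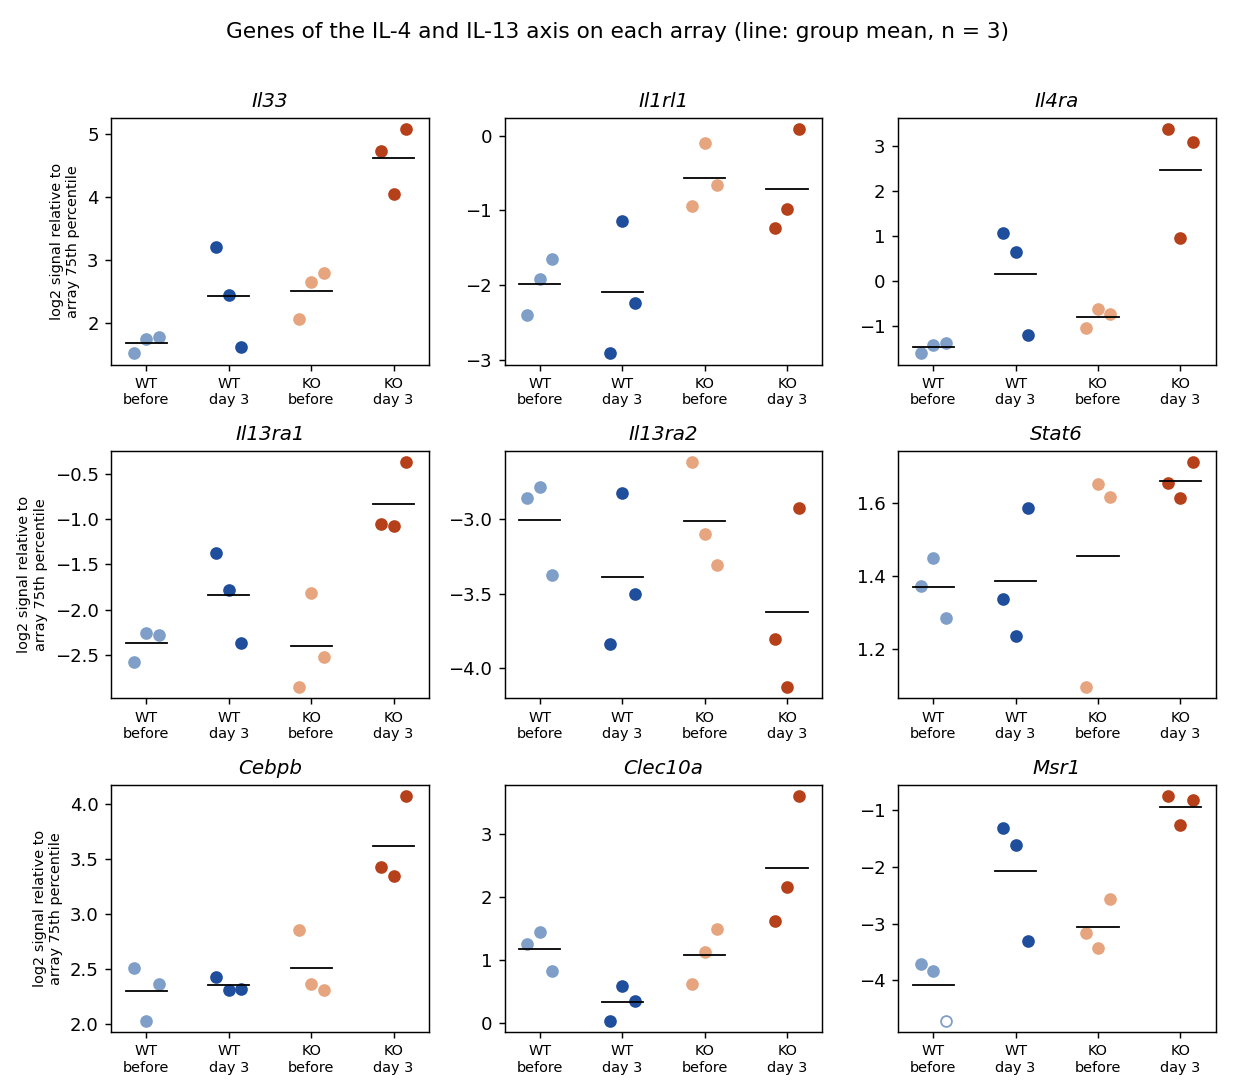
Log2 level of 9 genes of the IL-4 and IL-13 axis and its targets on each array, relative to the 75th percentile of the array, with the group means of 3 arrays as lines and an open point where the probe was not well above background. Il33, Il4ra, Il13ra1 and Cebpb had their highest group means at day 3 under the smSocs3-KO label (KO), at 4.63, 2.48, -0.84 and 3.62. For Il4ra the day 3 arrays of the 2 genotypes overlapped. The group means of Stat6 lay between 1.37 and 1.66.

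Relatives of the 9 genes were counted in the same way, beside 4.65% of all genes called in the WT challenge response. Of 9 other chitinase and resistin family genes on the array 5 were tested. Chid1, a chitinase domain protein of lysosomes, rose in WT by 1.02 (SE 0.23, limma adjusted p = 0.0391), and limma called none of the 5 in the other comparisons. Chia, Chit1, Retnlb and Retnlg were not tested because they were well above background on at most 2 arrays of any group. Arg2, the mitochondrial arginase, was well above background on 1 array in all, at day 3 under the smSocs3-KO label. Of 14 tested genes of arginine and polyamine metabolism Pycr1, which makes proline, rose in WT by 1.20 (SE 0.26, limma adjusted p = 0.0368).

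Genes of classical activation, the programme driven by interferon and bacterial products, were counted beside these. Of 14 tested, 2 rose in WT, 2 rose under the smSocs3-KO label and 1 was higher under that label at day 3. Over all genes 4.65%, 2.36% and 1.07% were called in these comparisons. In WT, Il6 was at least 37.6-fold higher at day 3 (limma adjusted p = 0.0362), and Cd40, a costimulatory receptor, rose by 0.95 (SE 0.24, limma adjusted p = 0.0483). Il6 lost its call in 10 and Cd40 in 15 of 20 alternative settings (limma adjusted p of up to 0.166 and 0.208). In the smSocs3-KO response Fpr2, a formyl peptide receptor, rose by 2.65 (SE 0.55, limma adjusted p = 0.0395) and Cd38 by 2.39 (SE 0.48, limma adjusted p = 0.0384), neither with the slide as a block (0.132 and 0.0958). Fpr2 was also the 1 gene called at day 3 between genotypes. It had passed the filter through smSocs3-KO at day 3 alone, the higher group in both comparisons, so neither of its calls is independent of the filter. Nos2, which competes with Arg1 for arginine, had group means of -2.15 to -1.47 and did not pass in any comparison (limma adjusted p of 0.134 to 0.999875).

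Most macrophage markers also had higher means at day 3. Of 21 macrophage and monocyte markers tested, 19 had a higher mean at day 3 in WT and 19 under the smSocs3-KO label. Limma called 2 and 5 of the 21, none lower, against 4.65% and 2.36% of all genes. The largest called were Ctss, a lysosomal protease, at 2.24 and Cd68 at 2.13, both under the smSocs3-KO label (SE 0.45 and 0.43, limma adjusted p = 0.0390 and 0.0394), with Tyrobp at 1.44 and Lgals3 at 1.17 in WT (SE 0.36 and 0.22, limma adjusted p = 0.0483 and 0.0323). Of 20 alternative settings, Ctss lost its call in 11, Cd68 in 15, Tyrobp in 16 and Lgals3 in 9. Before challenge their mean level ran from 0.88 to 1.03 in WT, and at day 3 from 1.06 to 2.59. The ranges were 1.01 to 1.65 under the smSocs3-KO label before challenge and 2.54 to 2.70 under it at day 3. The part of macrophage number in the levels of the 9 genes was not tested.

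Of 15 markers of tissue-resident macrophages, 1 rose in WT and 5 under the smSocs3-KO label, and 1 was higher under that label at day 3. The shares called over all genes were 4.65%, 2.36% and 1.07%. Vsig4, a complement receptor of resident macrophages, rose by 2.62 in WT (SE 0.53, limma adjusted p = 0.0336) and by 2.97 under the smSocs3-KO label (SE 0.53, limma adjusted p = 0.0256). F13a1 rose under that label by 1.72 (SE 0.27, limma adjusted p = 0.0178), and C1qa, a complement gene, rose there by 1.92 (SE 0.39, limma adjusted p = 0.0394). Gas6, a ligand of the receptors by which macrophages clear dead cells, was higher under the smSocs3-KO label at day 3 by 1.26 (SE 0.17, limma adjusted p = 0.0126). With the slide as a block this and the smSocs3-KO calls of Vsig4, F13a1 and C1qa were lost (limma adjusted p = 0.221, 0.0946, 0.0649 and 0.105). The mean level of these 15 genes was 3.03 to 3.51 on the day 3 arrays labelled smSocs3-KO and 1.90 to 2.67 on the other 9 arrays.

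Neutrophil markers are relevant because precursors of that lineage make Chi3l3. Of 14, 7 were tested, and the granule genes Ngp, Cd177 and Fcnb were not well above background on any array. Cxcr2 and Mmp8 were well above it on 2 arrays each, at day 3 under the smSocs3-KO label. S100a8 and S100a9 were well above it on every array. Under that label they were higher at day 3 by 3.39 and 3.32 (SE 1.21 and 1.51, limma adjusted p = 0.131 and 0.208). Their day 3 genotype differences were 3.53 and 2.89 (limma adjusted p = 0.190 and 0.366). The groups overlapped in each case. Means were higher for 4 of the 7 in the smSocs3-KO response and 3 at day 3 between genotypes. Mpo was at least 2.08-fold higher in WT at day 3 (limma adjusted p = 0.0446), a call lost in 12 of 20 alternative settings. It had passed the filter through WT at day 3 alone, the higher group here, so this p-value is not independent of the filter. Ly6g rose by 1.54 under the smSocs3-KO label (SE 0.26, limma adjusted p = 0.0235), a call lost in 6 of 20 settings. The mean level of the 7 was -0.42 to 1.29 on the day 3 arrays labelled smSocs3-KO and -1.30 to 0.21 on the other 9. Of 5 eosinophil markers 1 was tested and limma called it in no comparison, and Epx and Prg2 were not well above background on any array. The part of either cell type in the Chi3l3 signal was not tested.

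**Figure D4:**
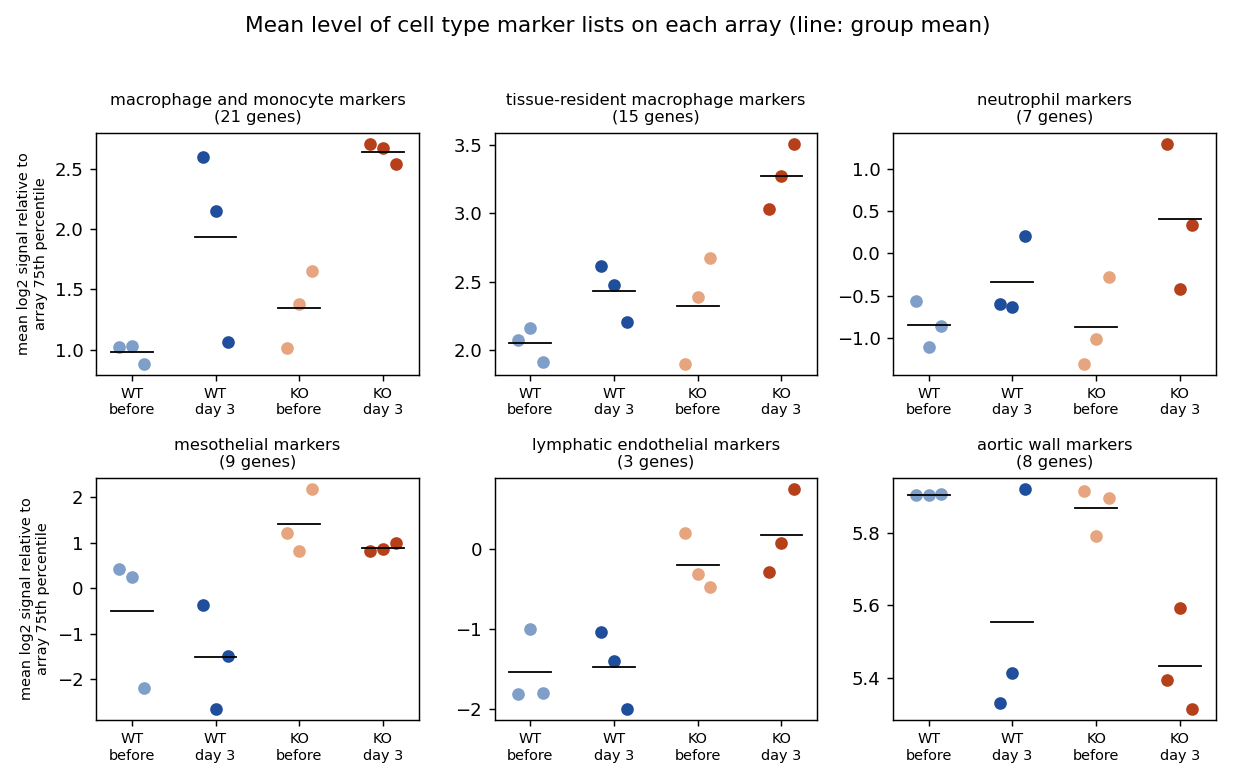
Mean log2 level of 6 lists of cell type markers on each array, relative to the 75th percentile of the array, with lines at the group means of 3 arrays. Macrophage markers were lowest among the day 3 arrays on WT replicate 4 (1.06), where aortic wall markers were highest (5.92), and mesothelial and lymphatic markers were higher under the smSocs3-KO label (KO) at both times.

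The genes whose levels were most like those of Chi3l3, Arg1 and Lyve1 were ranked by Pearson r over the 12 arrays among 15502 genes with a symbol. The arrays share groups and slides, so that r is a description. For Chi3l3 the 5 most similar were the apolipoprotein gene Apoc2 (r = 0.98), Ms4a4a (0.96), Arxes1 (0.96), H6pd (0.95) and Cyp4f18 (0.95). For Arg1 they were Fgr (0.94), Fam173b (0.94), Il4ra (0.94), Clec4e (0.93) and Pilra (0.93). For Lyve1 they were Tmem37 (0.97), Tmem120a (0.97), Maff (0.96), Abhd5 (0.96) and C1qc (0.96), the last a complement gene of resident macrophages. Apoc2 had group means of -2.60 and -0.93 in WT and -1.62 and 1.11 under the smSocs3-KO label, before challenge and at day 3 respectively, which is the order of Chi3l3. No gene stood on more than 1 of these 3 lists.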

How the data were processed

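Aortic RNA was labelled with Cy3 and hybridised to 1-colour Agilent arrays of 62976 spots. For each array the authors deposited scanner output whose processed signal is a linear intensity after background subtraction (spot analysis version 10.7.1.1 per the file headers; the submitters' processing notes name Agilent Feature Extraction 9.5.1.1). Spots well above background exceed it by 13 background SDs. A deposited table of the authors' own normalized intensity values served as an alternative.

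Control spots and spots with outlier marks were dropped, processed signals were put on the log2 scale, the 75th percentile of each array was subtracted, and spots of a probe were averaged. Of 55681 probes 32283 were kept, and a gene was read from its brightest kept probe. All 12 arrays were fitted with 4 group means in limma 3.58.1 (R 4.3.3), with Benjamini-Hochberg adjustment over 22761 genes and a threshold of 0.05. The fit was tested on simulated data. Replicate numbers were not used to pair the samples in this fit. Correlations of the deviations of arrays with the same number ran from -0.403 to 0.464, which does not settle whether they were paired. Motifs and alignments used biopython 1.88. The number of arrays limits the precision.

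The 9 genes and all gene lists were chosen with earlier results of these data known. Named beside the 9 genes were up to 4 called genes of a list in each comparison with the largest differences, genes of the IL-4 and IL-13 receptor system, near relatives of the 9 genes, and the 5 genes most like Chi3l3, Arg1 and Lyve1. Further genes stand as examples of a marker list and were chosen after their values were seen. Alternatives covered background correction, normalization, the filter on dim probes, probe choice, slide, replicate number, the study's threshold and leaving out each array. Fits on slide 2 arrays or WT arrays alone were added after seeing the data.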

Additional observations from a re-analysis of the deposited data

Results flagged for a closer look

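Day 3 arrays differed from those before challenge in opposite directions for Cd163 in the 2 genotypes. All 3 WT arrays at day 3 lay below the WT mean before challenge, and all 3 day 3 arrays labelled smSocs3-KO lay above their own mean before challenge, so that the challenge differences were 1.75 apart on the log2 scale. This difference between the genotypes was not tested. The WT side was small (log2 difference -0.15) and turned to 0.045 under quantile normalization and 0.046 with the authors' processed values.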

How the results depend on the processing

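The call of Chi3l1 before challenge kept its direction and its side of the threshold except with the slide as a block, where 0 of the 8 genes were called. The day 3 genotype difference of Chi3l3 was then 7.69. In the same fit 0 of 16 list genes called under the smSocs3-KO label and 0 of 5 called at day 3 passed. With an array left out, the genes of the set called in WT ranged from 0 to 2, and the genes of the alternative programme called ranged from 0 to 7 in WT, 0 to 9 under the smSocs3-KO label and 0 to 3 at day 3. Of the programme genes, 0 were called in WT with the WT arrays only, with no filter on dim probes, with the replicate block and at the study's threshold. Under the smSocs3-KO label 1 was called with no filter and 0 with the replicate block, on slide 2 arrays only and with the slide as a block. At day 3 between genotypes 0 were called with no filter, the replicate block or the slide as a block. Signs turned for differences that had passed no test or had none. Before challenge they were Mrc1 and Folr2 with the slide as a block (-0.077 and -0.37), and Cd163 with normexp and quantile normalization (-0.000235) and with the replicate block (-0.11). In WT, Cd163 was 0.046 with the authors' processed values and 0.045 with quantile normalization. With an array left out, Chi3l1 in WT ranged from -0.20 to 0.44, and before challenge Retnla ranged from -0.030 to 0.36, Cd163 from -0.15 to 0.12 and Folr2 from -0.022 to 0.43. Of the differences given with no test, Folr2 at day 3 between genotypes was -0.13 with the slide as a block, and Chi3l1 under the smSocs3-KO label was 0.064 with the replicate block. With an array left out, the latter ranged from -0.42 to 0.29 and Retnla at day 3 between genotypes from -0.74 to 0.82. The cause of these changes was not tested, apart from the slide block, which leaves 1 array labelled smSocs3-KO beside the WT arrays. Signal near background limits Chi3l3 and Arg1 in WT before challenge, Chi3l1 in WT at both times and Chi3l4 in all groups. It also limits Arg1 in WT at day 3 and in smSocs3-KO before challenge, where 2 of 3 arrays were well above background. The day 3 array labelled smSocs3-KO that was low in Arg1 was dim as well (processed signal 19.2). Normexp with quantile normalization gave smaller smSocs3-KO responses for Chi3l3 (4.57) and Arg1 (2.39). Their day 3 genotype differences were smaller too (3.96 and 1.95).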
